A study of Mus musculus with 6 samples.

Results

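Transcripts of 10 genes that make, limit or sense nitric oxide and endothelin were read in peritoneal endothelial cell (EC) preparations from mice given peritoneal dialysis (PD) fluid and from saline mice. The genes were taken by symbol from the deposited table of 22183 genes, in which each of the 10 symbols has 1 row. They are Nos3, Nos2, Gch1, Ddah1, Ddah2 and Arg1 on the nitric oxide side, and Edn1, Ece1, Ednra and Ednrb on the endothelin side. All 10 passed the filter on low counts, which left 14005 genes to test.

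Nitric oxide (NO) is a gas made from arginine by the NO synthases, which need tetrahydrobiopterin as a cofactor, are blocked by asymmetric dimethylarginine (ADMA) and share their substrate with the arginases. It relaxes vascular smooth muscle through soluble guanylate cyclase. Endothelin-1 acts the other way: it is cut from a precursor by endothelin-converting enzyme and constricts vessels through receptor A on smooth muscle, while receptor B on endothelium leads to NO release and clears the peptide.

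The study asked how PD fluid changes peritoneal ECs. Both groups were male wild-type C57BL/6J mice aged 8 to 10 weeks, injected intraperitoneally every day for 6 weeks with either saline (3 mice) or a high-glucose Dianeal PD fluid (3 mice). Each library is labelled as 1 mouse, and the mice were otherwise untreated. The labels describe CD31+ magnetic sorting of peritoneal tissue, whereas the methods of the study describe CD31+ CD45- flow sorting of digested mesentery, so the gate behind these libraries is not settled.

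The libraries held 21973426 to 26374292 counts. They also held transcripts of other cells. Ptprc, which encodes CD45, stood at 2373 ± 127 CPM under saline and 1473 ± 63.6 CPM under PD fluid (mean ± SD, n = 3 each). CPM is the read count of a gene relative to the size of its library, scaled by the TMM method. The summed level of the 12 endothelial markers ran from 1120 to 1130 CPM in saline mice and from 1750 to 1840 CPM in PD mice, and 11 of the 12 rose by edgeR's test with TMM scaling. All 10 macrophage markers rose, though Timd4 turned to -0.035 on the log2 scale when libraries were scaled to the endothelial markers, and their sum went from 2570–2710 CPM to 10300–11200 CPM. The 7 fibroblast, 6 mesothelial, 6 lymphatic endothelial and 7 pancreatic acinar markers rose as well, and the 5 B cell markers fell, with both scalings in the same direction. The acinar change was the largest of the lists, from a sum of 1.02–2.91 CPM in saline mice to 5690–6630 CPM in PD mice, which is above the endothelial sum. Of the other lists, 4 of 5 pan-leukocyte markers fell and Laptm5 rose (log2 fold change 0.31, -0.67 under the endothelial scaling), 2 of 5 T cell markers fell, and 4 of 6 neutrophil and 2 of 6 enteric glia and neuron markers rose. Both tested hepatocyte markers, Apoa1 and Ahsg, rose, while the whole list summed to at most 8.47 CPM in any mouse. The mean log2(CPM + 1) of each list differed between the groups with an exact permutation p = 0.1, the smallest possible (0.107 after adjustment over 15 lists), apart from the erythroid list (exact permutation p = 0.2). In such bulk samples, fewer cells of a type and less RNA per cell cannot be told apart. What part these cell types had in the results below was not tested.

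**Figure D1:**
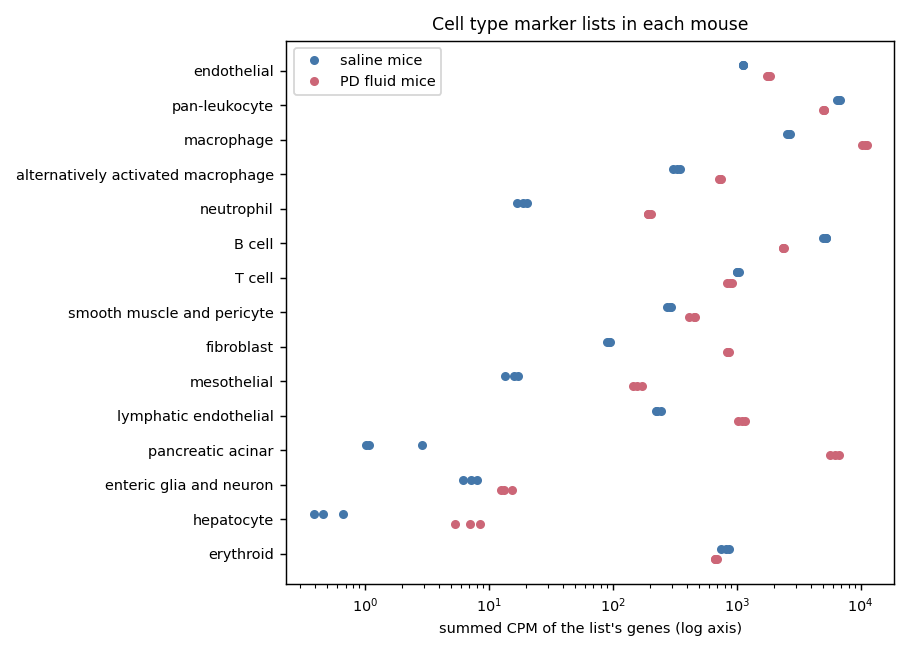
Summed CPM of each list of cell type markers (horizontal log axis) in the 3 saline mice (blue) and the 3 PD fluid mice (red), 1 point per mouse. The macrophage sums lie at 2570–2710 CPM for saline and 10300–11200 CPM for PD fluid, and the endothelial sums at 1120–1130 and 1750–1840 CPM.

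All 10 genes were higher in PD mice by edgeR's quasi-likelihood test (adjusted p under 0.05 after Benjamini-Hochberg adjustment over all 14005 genes) with TMM scaling, but when the libraries were scaled to the 12 endothelial markers instead, 3 were higher, 2 were lower and 5 did not pass. Over all tested genes, 31.1% were higher and 27.8% lower with TMM scaling. Under the endothelial scaling these shares were 8.24% and 72.2%, since that scaling moved the median log2 fold change of all genes by -0.98, from 0.02 to -0.96. The median log2 fold change of the 10 genes was 1.04 with TMM scaling and 0.06 with endothelial marker scaling. Under the latter the 12 markers themselves ran from -0.851 for Pecam1 to 0.681 for Tie1. Tie1, Robo4 and Vwf were called higher there, and Pecam1, Tek and Egfl7 lower. All 10 genes lay within this range, from -0.646 for Gch1 to 0.677 for Nos3. In 9 of the 10 genes, every PD mouse lay above every saline mouse in CPM, an arrangement found in 34.0% of all tested genes. No gene of the 10 was lower with TMM scaling. Fold changes below are with TMM scaling unless stated.

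**Figure D2:**
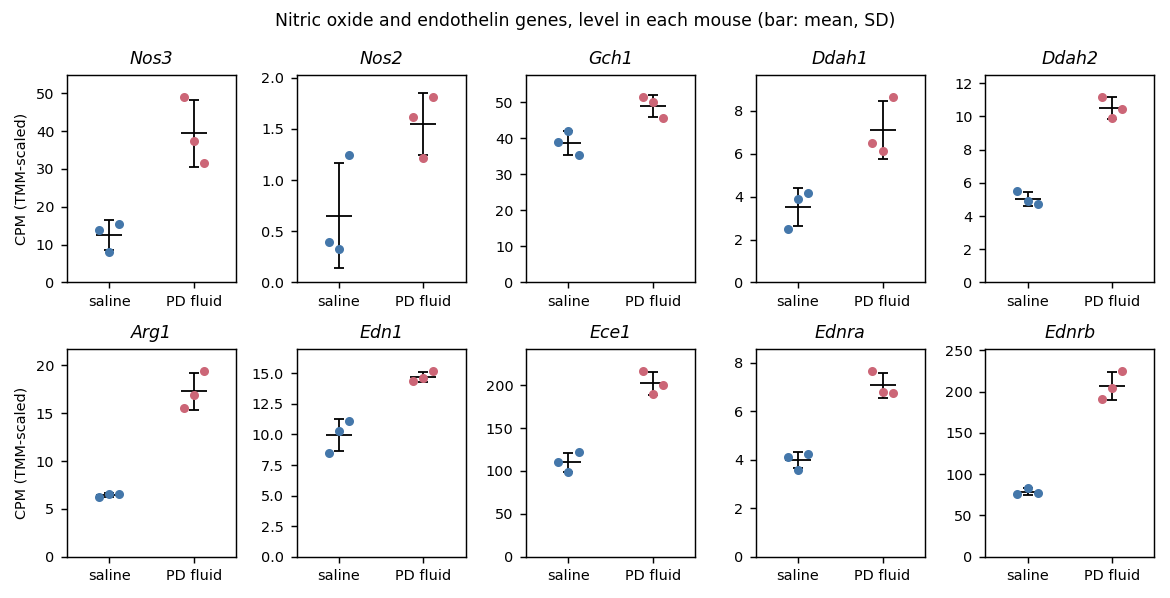
CPM of each gene (vertical axis, from 0, with its own range in each panel) in the saline mice (blue) and the PD fluid mice (red). Points are mice, and the bars give the mean and SD of 3 mice. The groups overlap only for Nos2, where the third saline mouse, at 1.24 CPM, lies just above the lowest PD fluid mouse, at 1.22 CPM.

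Nos3 (ENSMUSG00000028978, chr5:24364810-24384474, plus strand; all gene positions here are those of the same Ensembl ID in GENCODE M21 on GRCm38) encodes endothelial NO synthase, the isoform that ECs use. Its level was 13.9, 8.12 and 15.5 CPM in the 3 saline mice and 49.1, 37.5 and 31.6 CPM in the 3 PD mice. All PD mice were above all saline mice, and the second saline mouse was the lowest of its group. The log2 fold change was 1.65 (SE 0.22, 95% confidence interval 1.17 to 2.13, edgeR adjusted p = 8.82e-05), the largest of the 10 genes and a 3.14-fold difference. Among the 12 endothelial markers the log2 fold changes ran from 0.13 for Pecam1, which encodes CD31, to 1.65 for Tie1, with a median of 0.96. Nos3 therefore rose about as much as the marker that rose most. Nos3 was still higher when scaled to the endothelial markers, at a log2 fold change of 0.68 (95% confidence interval 0.33 to 1.03, edgeR adjusted p = 0.000993), which is 1.64 above the median of all genes on that scale.

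Further values move with Nos3. Its longest transcript has 58.2% GC, against a median of 49.6% over the tested genes, and the deviations of the libraries from their group means correlated with GC content across genes, from -0.38 in the second saline library to 0.30 in the first PD library. With each library's trend against GC content removed, the log2 fold change of Nos3 was 1.29 (edgeR adjusted p = 1.41e-05). That trend was fitted to deviations from the mean of all 6 libraries, not of each group. The correction therefore also takes out any GC trend between PD fluid and saline, whatever its source. The gene also overlaps Atg9b and the antisense gene Gm15587 on the other strand. No strand-specific protocol is named in the labels, so reads shared with such partners cannot be told apart. Atg9b held 16 to 17 counts per saline mouse and 22 to 37 per PD mouse, against 176 to 1334 for Nos3 over the 6 mice. Ddah1, Gch1, Edn1, Ednra and Ece1 also overlap other annotated genes, none of which has a row in the deposited table.

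Nos2 (ENSMUSG00000020826, chr11:78920787-78960254, plus strand), the inducible NO synthase best known from activated macrophages, was barely detected. It held 10, 7 and 30 counts in the saline mice and 44, 29 and 40 counts in the PD mice. In CPM these were 0.39, 0.32 and 1.24 against 1.62, 1.22 and 1.81. The groups overlapped, because the third saline mouse lay within the PD range. The log2 fold change of 1.23 had a 95% confidence interval of 0.18 to 2.29 (edgeR adjusted p = 0.0446). Without the third saline mouse it was 2.09 (edgeR adjusted p = 0.00359), and with any other mouse left out the call was lost at values of 0.93 to 1.39 (edgeR adjusted p between 0.0592 and 0.15). It was also lost with the GC correction, at 1.08 (edgeR adjusted p = 0.0608), and with endothelial marker scaling, where the log2 fold change was 0.27.

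Gch1 (ENSMUSG00000037580, chr14:47153895-47189413, minus strand) encodes GTP cyclohydrolase 1, the first and rate-limiting enzyme of tetrahydrobiopterin synthesis. The saline mice had 38.9, 42.0 and 35.4 CPM and the PD mice 51.5, 49.99 and 45.5 CPM. The groups did not overlap, but the gap between the highest saline mouse and the lowest PD mouse was small. Its log2 fold change, 0.34 (SE 0.09, 95% confidence interval 0.14 to 0.54, edgeR adjusted p = 0.00736), was the smallest of the 10 genes. With endothelial marker scaling the direction turned, to -0.65 (edgeR adjusted p = 4e-05), which is still 0.32 above the median of all genes on that scale.

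Ddah1 and Ddah2 encode the dimethylarginine dimethylaminohydrolases, which break down the inhibitor ADMA. Ddah1 (ENSMUSG00000028194, chr3:145758675-145894277, plus strand) had 2.50, 3.87 and 4.18 CPM in saline mice and 6.51, 6.12 and 8.65 CPM in PD mice. Ddah2 (ENSMUSG00000007039, chr17:35059035-35062095, plus strand) had 5.51, 4.89 and 4.72 CPM in saline mice and 11.2, 9.90 and 10.4 CPM in PD mice. For both genes the lowest PD mouse was above the highest saline mouse, and Ddah2 varied less between mice. The log2 fold change was 1.01 for Ddah1 (SE 0.23, edgeR adjusted p = 0.00281) and 1.06 for Ddah2 (SE 0.14, edgeR adjusted p = 0.000102). The GC correction lowered the value of Ddah2, whose longest transcript has 59.4% GC, to 0.63 (edgeR adjusted p = 0.00354). With endothelial marker scaling the log2 fold changes were 0.04 for Ddah1 (95% confidence interval -0.45 to 0.52) and 0.08 for Ddah2 (95% confidence interval -0.27 to 0.43), and neither passed the test.

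Arg1 (ENSMUSG00000019987, chr10:24915221-24927484, minus strand) encodes arginase 1, which turns arginine into ornithine and urea and is a known product of alternatively activated macrophages as well as of ECs. It stood at 6.21, 6.60 and 6.54 CPM in saline mice and at 15.6, 16.9 and 19.4 CPM in PD mice. The saline mice were almost level, and every PD mouse was more than 2-fold above them. The log2 fold change was 1.42 (SE 0.13, 95% confidence interval 1.13 to 1.71, edgeR adjusted p = 5.8e-06), and 0.45 with endothelial marker scaling (95% confidence interval 0.11 to 0.78, edgeR adjusted p = 0.0155). Of the 5 markers of alternatively activated macrophages, 4 rose with TMM scaling and Retnla did not pass the test (log2 fold change -0.13). With endothelial marker scaling Mrc1, Chil3, Cd163 and Folr2 stayed higher. Retnla was lower there (-1.11, edgeR adjusted p = 2.18e-08), as were 72.2% of all tested genes. The summed level of the 5 markers went from 306–347 CPM in saline mice to 721–745 CPM in PD mice. Whether the Arg1 transcripts came from ECs or macrophages was not tested.

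The endothelin genes include the peptide, the enzyme that activates it and both receptors. The 250 bases before the start site are shown for the peptide and its enzyme, and for Gch1, the member with the smallest fold change. They are from the RefSeq promoter table on GRCm38.p6, which matched 7 of the 10 genes, and are given 5′ to 3′ on the strand of the gene. They lie at chr13:42301226-42301475 (Edn1, plus strand), chr4:137861987-137862236 (Ece1, first of its start sites, plus strand) and chr14:47189414-47189663 (Gch1, minus strand). Capitals mark matches on either strand to CACCC, the core bound by Kruppel-like factors, or to GAGACC, known as a shear stress element.
Edn1: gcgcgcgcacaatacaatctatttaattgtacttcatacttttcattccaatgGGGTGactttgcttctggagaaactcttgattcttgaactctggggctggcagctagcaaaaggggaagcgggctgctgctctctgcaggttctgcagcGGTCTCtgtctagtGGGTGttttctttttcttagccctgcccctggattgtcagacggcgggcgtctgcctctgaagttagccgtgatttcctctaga
Ece1: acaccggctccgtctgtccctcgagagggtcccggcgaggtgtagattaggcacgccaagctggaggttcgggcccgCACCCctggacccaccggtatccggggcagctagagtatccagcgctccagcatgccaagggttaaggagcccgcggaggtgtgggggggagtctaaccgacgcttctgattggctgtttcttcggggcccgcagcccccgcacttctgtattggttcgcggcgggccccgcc
Gch1: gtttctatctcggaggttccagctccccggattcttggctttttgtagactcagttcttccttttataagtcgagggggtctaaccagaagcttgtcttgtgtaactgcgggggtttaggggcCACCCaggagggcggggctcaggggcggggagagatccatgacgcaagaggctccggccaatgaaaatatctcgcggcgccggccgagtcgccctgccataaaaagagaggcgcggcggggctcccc

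In Edn1, the reverse complement of CACCC begins 197 and 84 bases before the start and that of GAGACC 98 bases before it. In Ece1, CACCC begins 173 bases before the start, and in Gch1 127 bases before it. Of the 32851 promoter windows of the table, 52.0% hold CACCC and 13.7% hold GAGACC, so these letters are common, and whether they are bound was not tested. The AP-1 motif TGANTCA (in 6.75% of windows), the hypoxia response core ACGTG (in 16.6%) and the letters read by GATA factors, TGATAA (in 7.94%) or AGATAA (in 9.99%), were not found in these 3 windows on either strand. Another start site of Ece1 has ACGTG on both strands, beginning 89 and 90 bases before it.

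Edn1 (ENSMUSG00000021367, chr13:42301476-42307990, plus strand) encodes the precursor of endothelin-1. Its level was 8.47, 10.3 and 11.1 CPM in the saline mice and 14.4, 14.6 and 15.2 CPM in the PD mice. The PD mice lay close together and above all saline mice. The log2 fold change was 0.57 (SE 0.13, 95% confidence interval 0.28 to 0.85 and edgeR adjusted p = 0.00354). Scaled to the endothelial markers, the direction turned to -0.41 (95% confidence interval -0.73 to -0.09, edgeR adjusted p = 0.0183), which is 0.55 above the median of all genes on that scale.

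Ece1 (ENSMUSG00000057530, chr4:137862237-137965229, plus strand) encodes the endothelin-converting enzyme that releases the active peptide. The 3 saline mice had 110, 99.3 and 122 CPM and the 3 PD mice 216, 190 and 200 CPM. The lowest PD mouse was well above the highest saline mouse. The log2 fold change was 0.87 (SE 0.08, 95% confidence interval 0.69 to 1.06, edgeR adjusted p = 7.36e-06), and -0.10 with endothelial marker scaling (95% confidence interval -0.32 to 0.11), where it did not pass the test.

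Ednra (ENSMUSG00000031616, chr8:77663031-77724464, minus strand), the constricting receptor A that smooth muscle carries, was the scarcer receptor. It stood at 4.10, 3.60 and 4.22 CPM in saline mice and at 7.65, 6.79 and 6.75 CPM in PD mice. The groups did not overlap, and its log2 fold change was 0.83 (SE 0.16, 95% confidence interval 0.47 to 1.18, edgeR adjusted p = 0.00123). It was -0.15 and did not pass the test with endothelial marker scaling. Of the 8 smooth muscle and pericyte markers, 7 rose with TMM scaling and Kcnj8 did not pass (log2 fold change -0.15). With endothelial marker scaling Acta2, Myh11 and Cnn1 stayed higher, and Pdgfrb, Cspg4 and Notch3 did not pass. Rgs5 (-0.72) and Kcnj8 (-1.14) were lower there. The summed level of the 8 markers went from 274–295 CPM in saline mice to 413–460 CPM in PD mice. Acta2, smooth muscle actin, rose among them, from 33.3 ± 1.21 to 102 ± 4.99 CPM (SD, n = 3 each).

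Ednrb (ENSMUSG00000022122, chr14:103814625-103844402, minus strand) encodes receptor B, which endothelium carries. It had 76.0, 83.7 and 76.8 CPM in saline mice and 190, 205 and 225 CPM in PD mice. Each PD mouse was more than 2-fold above each saline mouse. With a log2 fold change of 1.39 (SE 0.08, 95% confidence interval 1.22 to 1.56, edgeR adjusted p = 9.14e-08), it was the most precisely measured of the 10 genes. It was still higher with endothelial marker scaling, at 0.41 (95% confidence interval 0.17 to 0.66, edgeR adjusted p = 0.00313).

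**Figure D3:**
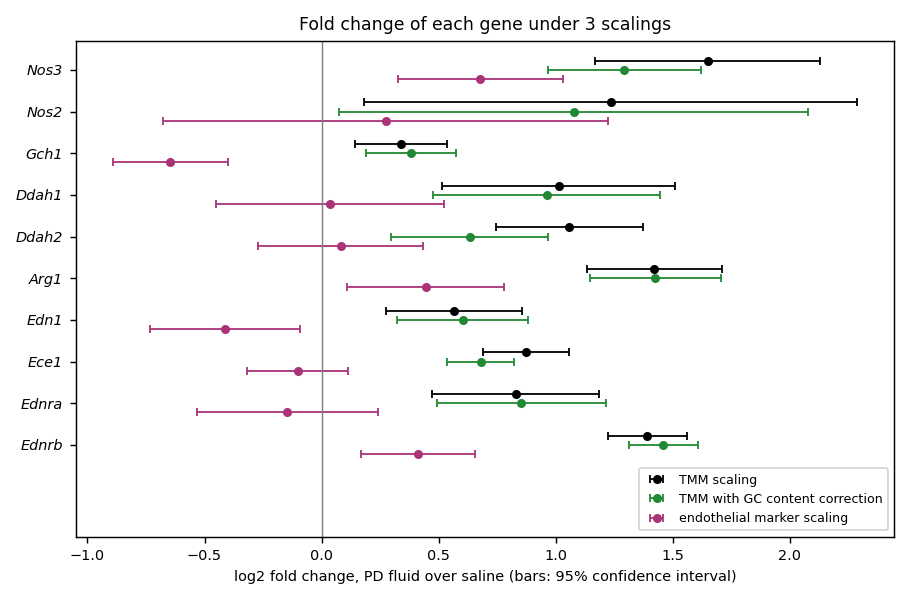
Log2 fold change of PD fluid over saline for each gene (horizontal axis, bars give 95% confidence intervals) with TMM scaling (black), with TMM scaling and the GC correction (green) and with endothelial marker scaling (purple). With TMM scaling all 10 values are above 0, from 0.34 for Gch1 to 1.65 for Nos3, and with endothelial marker scaling 4 of them, Gch1, Edn1, Ece1 and Ednra, are below 0.

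The log2 ratio of 2 genes within a library does not depend on how libraries are scaled. The log2 ratio of Ednrb to Ednra counts was 4.20, 4.52 and 4.17 in the saline mice and 4.63, 4.91 and 5.05 in the PD mice. It was higher in all PD mice, by 0.56 on average, with an exact two-sided permutation p = 0.1, the smallest that 3 mice against 3 allow (0.4 after adjustment over 4 ratios). The other ratios overlapped between the groups. The difference of PD fluid over saline was -0.03 for Ddah1 to Ddah2 (exact permutation p = 0.9), -0.01 for Arg1 to Nos2 (exact permutation p = 1.0) and 0.26 for Nos3 to Nos2 (exact permutation p = 0.7). The SD between saline mice of these 3 ratios, 0.51 to 0.97, was larger than each difference.

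Levels of different genes were compared in FPKM, the authors' values per transcript length. In saline mice, Ece1 (24.9 ± 3.25 FPKM) and Ednrb (23.0 ± 0.856 FPKM; SD, n = 3) came first and their ranges overlapped. Gch1 followed at 13.9 ± 1.07 FPKM. Edn1 (4.64 ± 0.632), Arg1 (4.35 ± 0.133), Ddah2 (3.78 ± 0.385) and Nos3 (3.02 ± 0.963) formed a run in which each range in FPKM overlapped the next. Ednra, at 1.09 ± 0.1 FPKM, overlapped Ddah1, at 0.974 ± 0.293 FPKM, and Nos2 was last at 0.169 ± 0.147 FPKM.

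In PD mice the order by FPKM began with Ednrb, at 60.3 ± 3.4 FPKM, and its lowest mouse was above the highest mouse of Ece1, which had 50.6 ± 6.23 FPKM. Gch1 was again the third, at 17.7 ± 1.57 FPKM. Arg1 (11.7 ± 1.01 FPKM), Nos3 (9.6 ± 2.43 FPKM) and Ddah2 (8.1 ± 0.766 FPKM) came next, each overlapping the next, and Nos3 now ranked above Edn1, at 6.9 ± 0.0523 FPKM, in every mouse. Ddah1 (2.17 ± 0.355 FPKM) and Ednra (1.96 ± 0.191 FPKM) overlapped, and Nos2 remained last at 0.411 ± 0.0904 FPKM. These orders are a description without a test.

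**Figure D4:**
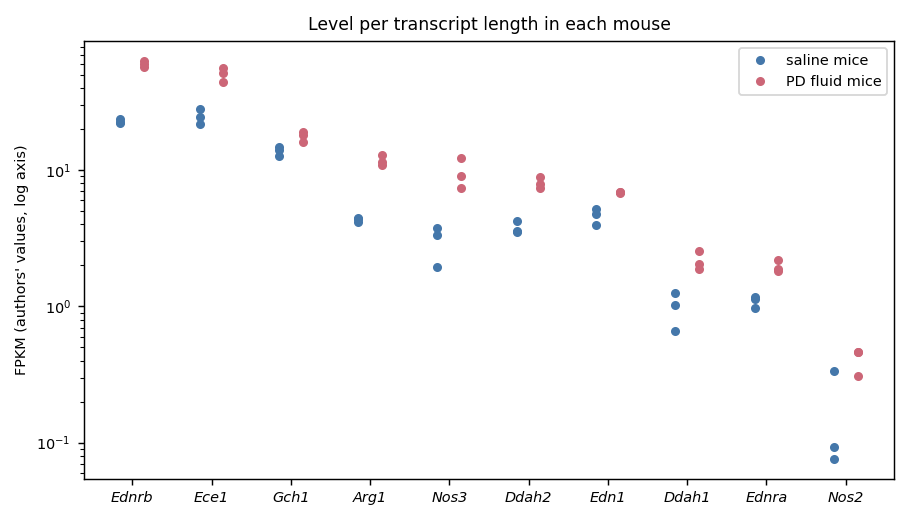
FPKM of each gene (vertical log axis, the authors' values) in the 3 saline mice (blue) and the 3 PD fluid mice (red), with genes ordered by their mean in PD fluid mice. Ednrb and Ece1 lie highest, at means of 60.3 and 50.6 FPKM in PD fluid mice, and Nos2 lowest, at 0.411 FPKM.

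The tested genes whose log2(CPM + 1) followed that of Nos3 most closely over the 6 mice, among 13892 with a mean of at least 10 counts, were Spint2 (Pearson's r = 0.9996), Dysf (0.9991) and Lamb2 (0.9989). Those nearest to Edn1 were Asph (0.9980), Zcchc12 (0.9959) and Tnfsf13 (0.9949). The 6 mice form 2 groups, so these values mostly reflect the difference between the groups and are given as a description.

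The enzymes' partners were read from 5 lists of 53 other pathway genes, of which 44 were tested with TMM scaling, 25 rose, 8 fell and 11 did not pass, against 31.1% higher and 27.8% lower among all tested genes. When scaled to the endothelial markers, 7 of them were higher and 22 lower, against 8.24% and 72.2% of all tested genes. Of the 15 genes for NO synthase partners and the tetrahydrobiopterin cofactor, 6 rose, 6 fell and 3 (Nos1, Qdpr and Gchfr) did not pass, with a median log2 fold change of -0.12 against 0.02 over all genes. The largest rises were those of Nos1ap, an adaptor of neuronal NO synthase, from 0.40 ± 0.13 to 1.00 ± 0.28 CPM (log2 fold change 1.3, edgeR adjusted p = 0.0227), of the chaperone gene Hsp90ab1 (1.23, edgeR adjusted p = 3.94e-08), and of Cav1, which encodes the caveolar protein that holds endothelial NO synthase inactive (0.87, edgeR adjusted p = 1.29e-06). Among the falls were those of Pts, the second enzyme of tetrahydrobiopterin synthesis (-0.52, edgeR adjusted p = 0.000328), and of Calm2, a calmodulin gene (-0.42, edgeR adjusted p = 0.00361). Of the 6 that rose, 1 stayed higher with endothelial marker scaling, Hsp90ab1 (0.25, edgeR adjusted p = 0.0474). Nos1ap (0.33), Cav1 (-0.11) and Hsp90aa1 (-0.17) did not pass there, and Nostrin (-0.50) and Spr (-0.70) were lower. All 6 falls lay between -0.52 and -0.24.

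Of the 8 genes that supply arginine or handle ADMA, 2 rose, 2 fell and 3 (Slc7a1, Ass1 and Asl) did not pass, with a median log2 fold change of 0.02. Arg2, the mitochondrial arginase, had 9, 3 and 7 counts in saline mice and went from 0.26 ± 0.11 to 3.51 ± 0.81 CPM, with a log2 fold change of 3.71 (SE 0.37, edgeR adjusted p = 1.18e-05). Slc7a2, an arginine transporter, went from 0.54 ± 0.13 to 3.83 ± 0.29 CPM, with a log2 fold change of 2.83 (SE 0.28, edgeR adjusted p = 9.88e-06). Both stayed higher with endothelial marker scaling, at 2.75 and 1.85. Prmt1, which makes most of the cell's ADMA, fell by 0.46 on the log2 scale (edgeR adjusted p = 0.000432), and Odc1, the ornithine decarboxylase downstream of arginase, fell by 0.28 (edgeR adjusted p = 0.00388). The recycling enzymes Ass1 and Asl had log2 fold changes of -0.09 (95% confidence interval -0.25 to 0.08) and 0.02 (95% confidence interval -0.16 to 0.20). With endothelial marker scaling Ass1, Asl, Slc7a1, Prmt1 and Odc1 were all lower, from -1.44 for Prmt1 to -0.79 for Slc7a1. On that scale 72.2% of all tested genes were lower. Agxt2, which also metabolises ADMA, had 0 counts in every mouse, which allows up to 3 counts per library, or 0.11 to 0.138 CPM, for counting error only.

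All 6 tested genes of the NO receptor and its effectors rose with TMM scaling, with a median log2 fold change of 1.07, against 31.1% of all tested genes higher and a median of 0.02, but under the endothelial scaling 1 of the 6, Irag1, stayed higher (0.57, edgeR adjusted p = 0.0313), Gucy1a1 (-0.45) and Vasp (-0.42) were lower, and Prkg1 (0.51), Gucy1b1 (0.23) and Pde5a (-0.04) did not pass. With TMM scaling the largest values were those of Irag1, a target of cGMP-dependent protein kinase (1.53, edgeR adjusted p = 0.000353), Prkg1, that kinase itself (1.48, edgeR adjusted p = 0.00513), and Gucy1b1, a subunit of soluble guanylate cyclase (1.21, edgeR adjusted p = 0.000732). These genes are also known from smooth muscle. Of the 8 smooth muscle and pericyte markers, 7 rose with TMM scaling. Under the endothelial scaling Acta2, Myh11 and Cnn1 stayed higher, while Rgs5 and Kcnj8 were lower. Which cells the transcripts of the NO receptor and its effectors came from was not tested. Gucy1a2 was not tested, at 0 to 7 counts per saline mouse. Of the other endothelin ligands and proteases, none was tested. Edn2 had 0 counts in every mouse, and Edn3, Ece2 and Mme had 16, 33 and 37 counts over all 6 mice.

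**Figure D5:**
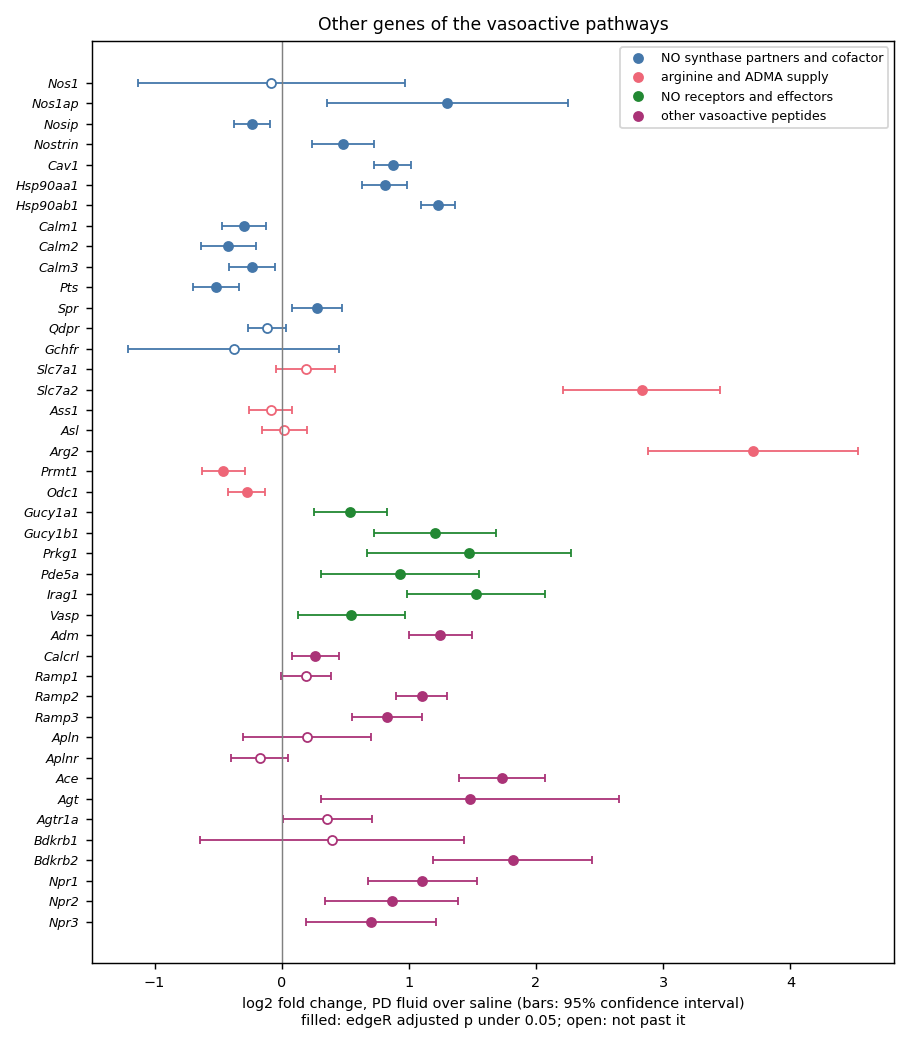
Log2 fold change of PD fluid over saline with TMM scaling (horizontal axis, bars give 95% confidence intervals) for tested pathway genes. Filled points passed edgeR's test at an adjusted p of 0.05 and colours mark the lists. Arg2, at 3.71, and Slc7a2, at 2.83, lie farthest to the right, and Pts, at -0.52, farthest to the left.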

How the data were processed

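RNA of CD31+ peritoneal cells from 3 saline and 3 PD fluid mice was enriched with oligo(dT) beads, made into libraries with the NEBNext Ultra RNA kit and sequenced on a NovaSeq instrument. The authors deposited 1 table of 22183 genes that gives a raw count per gene and mouse, and the FPKM values they computed per mouse. The columns of the authors' own comparison in the deposited table (the mean FPKM of each group, a log2 ratio, a p-value and an FDR) were not used. The submitters' processing notes name fastp 0.18.0, Bowtie2 2.2.8, HISAT2, StringTie 1.3.1 and RSEM. The genome build and annotation are not given in the sources used here. Samples were grouped by their titles, and 0 sample columns were left unmatched.

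The members and lists were chosen with earlier results of these data known. Counts were filtered with filterByExpr, scaled by TMM and tested with edgeR 4.0.16 (quasi-likelihood, R 4.3.3) over all 14005 genes left, with no covariate and a Benjamini-Hochberg adjusted p threshold of 0.05. Standard errors were derived from the F statistic. Levels are CPM, and lists were scored as the mean of log2(CPM + 1) and compared by two-sided exact permutation over mice, for which 3 against 3 allow no p under 0.1. Paralog ratios are log2((count + 1)/(count + 1)). The scripts were tested on simulated counts.

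The alternatives were RLE scaling, no filter, DESeq2 1.42.0, limma-voom (limma 3.58.1), a replicate block, scaling to 12 endothelial markers, each mouse left out and, chosen after seeing the data, per-library offsets against the GC content of the longest GENCODE M21 transcript. The replicate numbers did not pair the mice (correlations of deviations of 0.19, 0.07 and -0.27 for the same-numbered pairs). Named genes are the 10 members, up to 3 called genes per pathway list in each direction by size of change, list genes that were not tested, and the 3 genes most like Nos3 and Edn1. Some genes that the rule takes are counted in their lists and not reported here by name. Genes that did not pass are named where a list has 5 or fewer of them, which was decided after their values were seen, and so were the markers named beside members. The genes named only for the endothelial scaling were also chosen after their values were seen. Total counts were 21973426 to 26374292, and intervals on counts cover counting error only. P-values measure the spread between these mice, which no label ties to separate experiments. Python 3.11.15 was used for tables (pandas 2.3.3, numpy 2.4.6), exact tests (scipy 1.17.1) and figures (matplotlib 3.10.9).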

Additional observations from a re-analysis of the deposited data

How the results depend on the processing

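With RLE scaling, no filter, DESeq2, limma-voom and the replicate block, all 10 genes were called higher, as with TMM scaling. Under the replicate block, 4242 genes of all tested were higher and 3667 lower, against 4359 and 3887 without it, and the saline mice did not each correlate best with the PD mouse of their own number. With the GC correction, 9 of the 10 genes were higher, all but Nos2. Endothelial marker scaling changed the most: 3 of the 10 genes were higher and 2 lower, 7 and 22 of the pathway genes, and 1154 and 10111 of all genes. Under it Gch1 was at -0.65, Edn1 at -0.41, Ednra at -0.15 and Ece1 at -0.10 on the log2 scale.

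With each mouse left out in turn, 9 to 10 of the 10 genes stayed higher and 0 turned lower, 21 to 24 pathway genes were higher and 5 to 7 lower, the 5 without the second PD mouse. Over all genes, 3852 to 4333 were higher and 3121 to 3685 lower. The difference in log2 ratio ran from 0.47 to 0.68 for Ednrb to Ednra, from -0.33 to 0.15 for Ddah1 to Ddah2, from -0.56 to 0.35 for Arg1 to Nos2 and from -0.12 to 0.59 for Nos3 to Nos2. A pseudocount of 0.5 turned none of the 4 ratios. The causes of these changes were not tested. Depth limits Nos2, whose lowest count was 7, and the endothelin genes Edn2, Edn3, Ece2 and Mme.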

Other observations

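Other vasoactive peptide systems were read in the same libraries. Of 19 such genes 16 were tested, 11 rose, none fell and 5 (Ramp1, Apln, Aplnr, Agtr1a and Bdkrb1) did not pass with TMM scaling, with a median log2 fold change of 0.85, against 31.1% of all genes higher and a median of 0.02 over all genes. Bdkrb2, the constitutive bradykinin receptor, went from 1.89 ± 0.66 to 6.70 ± 1.87 CPM (SD, n = 3 each), with a log2 fold change of 1.82 (edgeR adjusted p = 0.00028) and 0.84 with endothelial marker scaling. Ace, angiotensin-converting enzyme, went from 17.4 ± 3.24 to 57.9 ± 10.5 CPM, with a log2 fold change of 1.73 (edgeR adjusted p = 4.36e-06) and 0.76 with endothelial marker scaling. Most of the genes that rose did not stay higher under that scaling. Adm, Ramp2, Ramp3, Agt, Npr1, Npr2 and Npr3 did not pass there, and Calcrl was lower (-0.72, edgeR adjusted p = 6.21e-06). Ramp1, Apln, Aplnr and Agtr1a were lower there too, as were 72.2% of all tested genes. Agtr1b, Agtr2 and Nppc were not tested, and Agtr2 had 0 counts in every mouse.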
